A study of Mus musculus with 24 samples.

Results

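The cells described here are the Venus-negative epithelial cells of the ileum and of the colon of Guca2a-Venus mice, compared directly with each other over all genes. They were chosen by their labels alone, as every library with a GFP-negative sort from the ileum (3 libraries) or the colon (3 libraries), which gives 6 of the 24 libraries of the series. In this line, derived from a single founder, an additional copy of the guanylin locus holds the yellow fluorescent protein Venus where *Guca2a* would be coded, so that cells which use the *Guca2a* promoter fluoresce. All libraries, negative ones included, came from mice that carry this transgene, on a background of C57Bl6J crossed with CBA and bred back to C57Bl6J to a varying degree. No age is given, and no drug or diet was applied. Cells were released from the lowest stretch of the small intestine or from the whole colon with rectum, and dead cells, debris and CD45-positive immune cells were gated out before sorting. Colon was incubated with a stronger EDTA solution than small intestine, so the effects of region and of release cannot be told apart in these data.

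The ileum completes digestion, recovers bile acids and vitamin B12, and meets a rising bacterial load with Paneth cells at the crypt base that secrete antimicrobial peptides. The colon has no villi and no Paneth cells. It absorbs salt, water and the short-chain fatty acids made by bacteria, and lies under a thick mucus layer made by goblet cells. Regional identity along the gut is set in development by Hox and other transcription factors and is kept by the stem cells of each region. Strongly fluorescent cells were sorted as Venus-positive and cells without visible fluorescence as Venus-negative. Genes of crypt cells, enteroendocrine cells, tuft cells, enterocytes and goblet cells were counted in the latter, as given below. In RNA from such a mixture, fewer cells of a type and less RNA per cell cannot be told apart.

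Counts of reads on genes ranged from 15672116 to 23063124 in the ileal libraries and from 9255295 to 18079422 in the colonic libraries. Transcripts of the mitochondrial genome took 64.7 to 70.9% of these counts in the ileum and 65.3 to 80.7% in the colon. Levels are given below in CPM, which are counts relative to the size of the library as edgeR's TMM method scales it, in the order of libraries 1, 2 and 3 of each region. The labels tie these numbers to no animal. Library 1 of both regions carries the i5 index D501rna and libraries 2 and 3 of both carry D502rna. A gene with 3 counts in the 3 libraries of a region together, taken as the floor of detection, had 0.0425 CPM in the ileum and 0.0889 CPM in the colon, which covers counting error only. Colon library 1 stood apart from the other colonic libraries. It held counts for 14259 genes, the fewest of the 6, and its Spearman correlation with the other colonic libraries across genes was 0.878 and 0.856, against 0.936 between those and 0.935 to 0.965 among the ileal libraries. Colon library 2 was the highest colonic library for some secretory products, such as *Mptx1* and *Spink4*. Ileum library 1 was the lowest ileal library for several products of mature enterocytes, such as *Anpep* and *Apoa1*, and the highest for others, such as *Sis* and *Mgam*. Both libraries numbered 1 share an index, which within a region cannot be told apart from the library itself. The labels do not name the mouse, so p-values measure the spread between these samples. The 10 genes listed for epithelial identity were tested as a check of the tissue. Their summed level was 3036 to 4669.6 CPM in the ileum and 3065 to 4354 CPM in the colon, and *Epcam*, the adhesion molecule of epithelial cells, was at 376, 399 and 432 CPM in the ileum and 287, 269 and 326 CPM in the colon. *Vil1*, which encodes the brush border protein villin, was at 129.5, 168 and 113 CPM in the ileum and 67.1, 61.97 and 49.4 CPM in the colon and was the exception among the 10, being called higher in the ileum (1.20 ± 0.29, adjusted p = 0.00925). Values in brackets of this kind are the log2 fold change, ileum minus colon, with an approximate standard error. The adjusted p beside them is that of edgeR's quasi-likelihood test. The error was worked back from the log2 fold change and the F value of that test. *Vil1* lost its call without ileum library 2 (adjusted p = 0.0772) and without colon library 2 (0.0553) or 3 (0.0608), and with the 6 libraries fitted alone (0.0817).

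Of 15044 genes tested, 455 were higher in the ileum and 334 were higher in the colon at an adjusted p below 0.05 (edgeR's quasi-likelihood test, Benjamini-Hochberg adjustment). These 789 genes were 5.24% of those tested, 3.02% in the direction of the ileum and 2.22% in the direction of the colon. The median log2 fold change of all tested genes, always given here as ileum minus colon, was 0.14. Most calls were large: 425 of the genes higher in the ileum and 331 of those higher in the colon differed by at least 1 on the log2 scale, and 163 and 137 by at least 3. All but 28 of the called genes had 3 libraries of one region beyond the 3 of the other, and so did 19.9% of all tested genes, 12.9% with the ileum above and 6.99% with the colon above. A gene described below as without overlap is one of these, and nothing more is read from that. The balance between the regions differed between fits, and the cause was not tested. With DESeq2's RLE factors in edgeR 348 genes were higher in the ileum and 416 in the colon, with library size alone 1599 and 234, and with the 6 libraries fitted alone 178 and 334. With DESeq2's own test the split was 506 and 574, without a filter on low counts 414 and 515, with a minimum count of 30 it was 359 and 425, and over protein-coding genes outside the mitochondrial genome 355 and 418. The median over all genes moved to 0.02 with RLE factors and to 0.62 with library size alone. Without ileum library 2 the calls fell to 488 (284 and 204), and without ileum library 1 to 541 (338 and 203). With the i5 index as a covariate 535 genes were higher in the ileum and 377 in the colon. None of the 789 calls changed sign under any of these settings or when a library was left out.

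**Figure D1:**
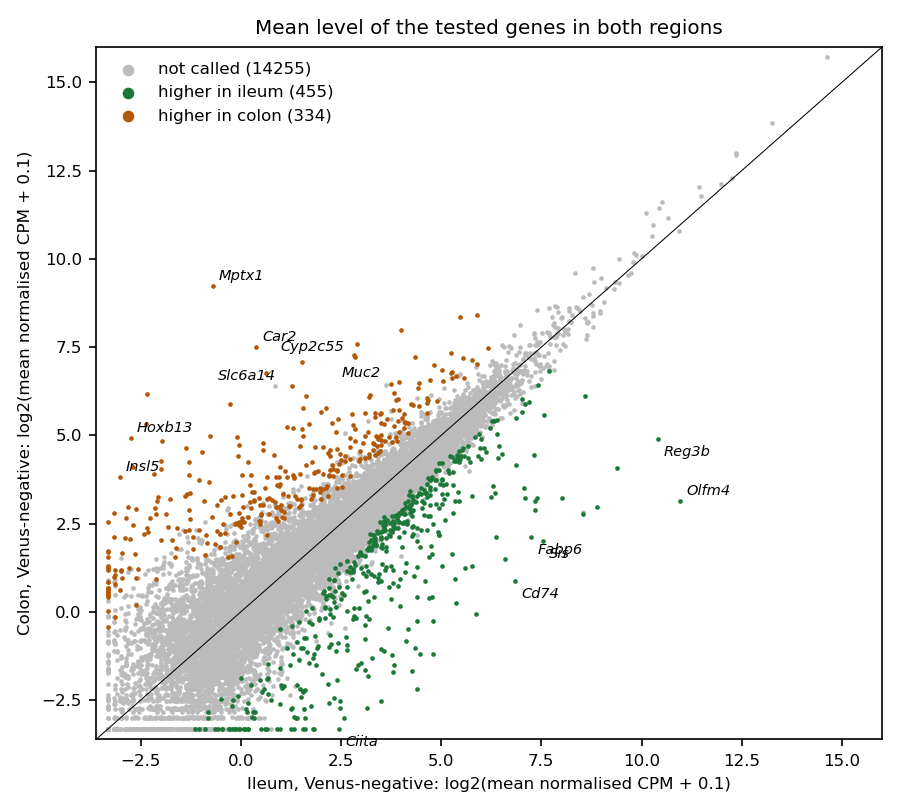
Mean level of each of the 15044 tested genes in Venus-negative cells of the ileum (x axis) and of the colon (y axis), as log2 of the mean normalised CPM of 3 libraries with 0.1 added. Green points are the 455 genes called higher in the ileum, brown points the 334 called higher in the colon, and the line marks equal levels. The 2 called sets lie on either side of a dense band of uncalled genes.

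The gene with the largest difference in the direction of the ileum was *Olfm4*, the secreted glycoprotein that marks small intestinal stem cells. It was at 1679, 821 and 3506 CPM in the ileum and 6.11, 5.93 and 14.2 CPM in the colon, so that the lowest ileal library lay far above every colonic one (7.83 ± 0.77, adjusted p = 2.59e-08). Genes of digestion and metabolism were among the 15 largest. *Sis*, which encodes the disaccharidase sucrase-isomaltase, was at 222, 127 and 209 CPM in the ileum and 3.95, 3.96 and 3.83 CPM in the colon (5.57 ± 0.38, adjusted p = 2.82e-11). *Cps1*, which encodes carbamoyl phosphate synthetase, the entry step of citrulline synthesis in enterocytes, was at 395, 264 and 459 CPM in the ileum and 2.996, 3.96 and 13.4 CPM in the colon (5.77 ± 0.67, adjusted p = 4.52e-07). Both were even among the libraries of a region compared with the distance between regions. *Lgals2*, which encodes the sugar-binding protein galectin-2, was at 362, 418 and 640.2 CPM in the ileum and 12.1, 4.102 and 6.89 CPM in the colon (5.96 ± 0.54, adjusted p = 5.39e-09). *Gata5*, a zinc-finger transcription factor of the gut endoderm, reached 22.6, 27.4 and 16.5 CPM in the ileum and was low in the colon at 0.12, 0.293 and 0.595 CPM (5.94 ± 0.53, adjusted p = 4.83e-09). *Nos2*, the inducible nitric oxide synthase, was at 12.3, 27.97 and 17.1 CPM in the ileum and 0, 0.293 and 0.34 CPM in the colon (6.31 ± 1.01, adjusted p = 7.84e-05). Others among the 15 largest were the antigen-presentation genes *H2-Ab1*, *H2-Aa* and *Cd74*, the defensins *Defa21* and *Defa22* and the lectin *Reg3b*, described with their groups, and *Fam234b* and *Myrfl*, whose log2 fold changes were 7.11 and 6.37. *Adcy8*, an adenylyl cyclase, was at 14.6, 8.89 and 10.1 CPM in the ileum and had 3 counts in the 3 colonic libraries together, a ratio of 125 with a 95% counting interval from 42.7 to 609. *Adcy8* had all its colonic reads in library 2, and its ratio rests on that library. *Fam234b* had all its colonic reads in library 2, and its fitted size depends on that library.

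The gene with the largest difference in the direction of the colon was *Mptx1*, which encodes a secreted mucosal pentraxin. It was at 0.0413, 0.282 and 1.22 CPM in the ileum and 199, 1437 and 165 CPM in the colon (-10.29 ± 1.01, adjusted p = 2.59e-08), and colon library 2 alone held more of it than the other colonic libraries together. *Tgm3*, a transglutaminase that cross-links proteins, was at 87.6, 65.7 and 63.5 CPM in the colon and near the floor in the ileum at 0.0413, 0.141 and 0.111 CPM (-9.40 ± 0.65, adjusted p = 2.82e-11). *Car2*, the cytosolic carbonic anhydrase that supplies bicarbonate and protons to transporters, was at 2.85, 0.282 and 0.499 CPM in the ileum and 146, 194 and 204 CPM in the colon (-7.21 ± 0.75, adjusted p = 7.25e-08), and ileum library 1 held most of the little found there. *Sult1a1*, a sulfotransferase that conjugates phenols, was at 3.09, 0.458 and 0.831 CPM in the ileum and 95.4, 99.7 and 134 CPM in the colon (-6.22 ± 0.62, adjusted p = 2.91e-08). *Wfdc2*, a small secreted protease inhibitor of the whey acidic protein family, was at 0.454, 0.247 and 1.497 CPM in the ileum and 48.9, 53.9 and 74.7 CPM in the colon (-6.40 ± 0.78, adjusted p = 9.85e-07). *Thbs4*, which encodes the matrix protein thrombospondin 4, was at 27.8, 38.01 and 53.998 CPM in the colon against 0.0413, 0.247 and 0 CPM in the ileum (-8.41 ± 0.78, adjusted p = 2.03e-08). Also among the 15 largest were *Anxa3* (-6.65), *Pcdh17* (-6.79), *Nxpe2* (-6.77), *Sycn* (-6.04) and *Myo3a* (-5.87), each given by its log2 fold change. *Sval1* had 3 counts in the 3 ileal libraries together and 9.47, 24.02 and 17.7 CPM in the colonic libraries, a ratio of 429 with a 95% counting interval from 146 to 2086. *Npas3*, a transcription factor gene, owed its place to 1 library: it was at 82.3, 1.17 and 1.79 CPM in the colon. *Npas3* lost its call without colon library 1 (adjusted p = 0.361). *Npas3* had a log2 fold change of -3.20 without colon library 1. *Nxpe2* had all its ileal reads in library 2, and its fitted size depends on that library. *Pcdh17* had all its ileal reads in library 1, and its fitted size depends on that library.

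**Figure D2:**
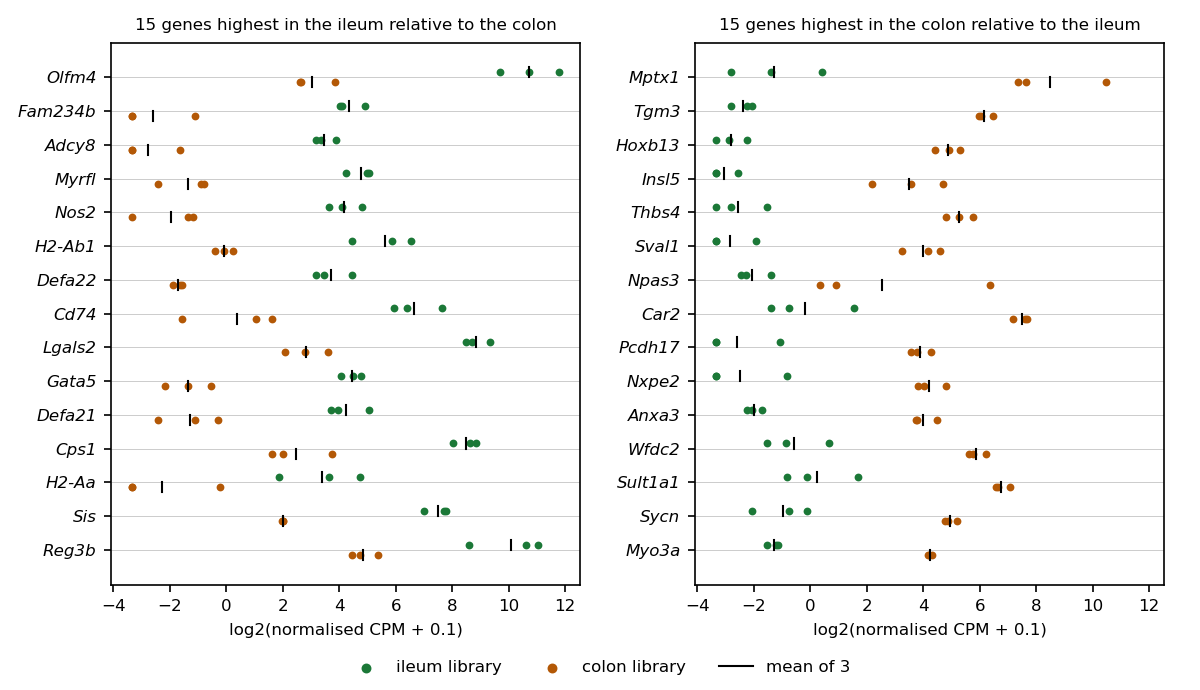
Levels of the 15 genes with the largest log2 fold change in each direction, as log2 of normalised CPM with 0.1 added (x axis). Each point is 1 Venus-negative library (green, ileum; brown, colon) and the black ticks are means of 3. The libraries of the regions do not overlap for any of the 30 genes, as the choice of genes required, and *Npas3* shows 1 colonic library far above the others.

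Hox genes give cells their position along the body axis, with the highest-numbered groups at the posterior end. Of the 16 genes of groups 9 to 13, 7 passed the filter and 5 of these were higher in the colon and none in the ileum (2.22% of all tested genes were called in that direction). Of the 7, 4 were at or under the floor in the ileum and passed the filter through the libraries where they are high, so their count is a description and nothing is read from its share. Such genes were in other lists too, such as 4 of 29 nutrient carriers, 4 of 38 genes of colonic ion and water transport and 2 of 10 class II genes, and the counts given for lists below are descriptions as well. Without ileum library 1 or colon library 3 the count was 3. *Hoxb13* was at 21.5, 30.3 and 39.2 CPM in the colon, with 3 counts over the 3 ileal libraries together, a ratio of 735 with a 95% counting interval from 251 to 3571. *Hoxa9* was at 7.43, 6.74 and 6.46 CPM in the colon with 1 count in the ileum, a ratio of 481 with a 95% counting interval from 85.5 to 19091. *Hoxa10* was at 0, 0.423 and 0 CPM in the ileum and 8.51, 12.7 and 7.23 CPM in the colon (-5.88 ± 1.20, adjusted p = 0.00201), and its ileal reads came from library 2. *Hoxa11*, with no count in the ileum, was at 2.52, 1.61 and 1.02 CPM in the colon and at least 38.4-fold higher there. *Hoxd13* also had no count in the ileum and was at least 83.7-fold higher in the colon over the group, but it had none in colon library 1 either, at 0, 3.44 and 6.21 CPM. *Hoxa13* was at 0.0413, 1.199 and 0 CPM in the ileum and 2.16, 4.54 and 5.27 CPM in the colon and missed the threshold (-3.20 ± 1.03, adjusted p = 0.0685). The median over the 7 genes was -5.88 with genes under the floor set at their bound or count ratio, and -7.70 as fitted. Of 13 tested genes of groups 1 to 8, *Hoxa7* was higher in the colon at 5.63, 6.52 and 3.23 CPM against 0.289, 0 and 0 CPM (-5.59 ± 1.15, adjusted p = 0.00289) and the other 12 were not called. *Hoxb6* was at 12.5, 12.2 and 9.53 CPM in the ileum and 13.4, 7.91 and 3.997 CPM in the colon, with overlapping regions. *Hoxa7* lost its call with DESeq2 (adjusted p = 0.0512). *Hoxd13* lost its call without ileum library 1 (adjusted p = 0.0542) or 2 (0.0621) and without colon library 3 (0.0529), and with DESeq2 (0.463). *Hoxa11* lost its call without ileum library 1 (adjusted p = 0.144), 2 (0.164) or 3 (0.105) and without colon library 1 (0.0851), 2 (0.0611) or 3 (0.0602), and with DESeq2 (0.192). *Hoxa10* had all its ileal reads in library 2, and its fitted size depends on that library. *Hoxa7* had all its ileal reads in library 1, and its fitted size depends on that library.

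Among 30 other transcription factors with regional roles in the gut, 8 were higher in the ileum and 5 in the colon, against 3.02% and 2.22% of all tested genes. Leaving out libraries changed this, since the former count was 5 without colon library 2 or 3, and the latter 3 without ileum library 1 or 3. Over all alternatives the list had 5 to 12 called genes towards the ileum and 3 to 5 towards the colon. The factors higher in the ileum included *Gata5*, given above. *Maf*, a leucine zipper factor, was at 23.5, 24.6 and 14.5 CPM in the ileum and 0.839, 1.099 and 0.255 CPM in the colon (4.81 ± 0.40, adjusted p = 1.52e-09). *Gata4*, the factor that keeps jejunal identity, was low in the ileum, at 1.196, 0.952 and 0.554 CPM, and lower in the colon, at 0, 0.439 and 0.085 CPM (2.13 ± 0.54, adjusted p = 0.0148). The nuclear receptors *Hnf4g* (1.51 ± 0.36, adjusted p = 0.0075) and *Hnf4a* (0.99 ± 0.29, adjusted p = 0.0347), which drive enterocyte genes, differed less. *Hnf4a* was at 181, 200.03 and 131 CPM in the ileum and 93.7, 91.6 and 72.2 CPM in the colon, without overlap. In the direction of the colon, *Foxd2*, a forkhead gene, was at 0.0825, 0.282 and 0.554 CPM in the ileum and 19.2, 13.8 and 10.97 CPM in the colon (-5.59 ± 0.83, adjusted p = 2.49e-05). *Pparg*, a lipid-sensing nuclear receptor, was at 2.85, 1.76 and 1.55 CPM in the ileum and 13.9, 11.4 and 21.7 CPM in the colon (-2.92 ± 0.43, adjusted p = 2.01e-05). Ileal libraries all lay below colonic ones for both. *Osr2* (1.88, towards the ileum), *Tfcp2l1* (-2.15 ± 0.33, adjusted p = 3.49e-05) and *Klf4* (-1.20 ± 0.36, adjusted p = 0.0452) were called as well, the latter pair towards the colon. The master factors of intestinal identity overlapped between regions. *Cdx2* was at 46.3, 44.5 and 35.7 CPM in the ileum and 29.2, 43.3 and 31.97 CPM in the colon, with a 95% interval of the log2 fold change from -0.31 to 0.86. *Cdx1* was at 49.5, 51.98 and 46.6 CPM in the ileum and 42.3, 58.3 and 45.2 CPM in the colon, with an interval from -0.48 to 0.53. *Hnf4a* lost its call without ileum library 1 (adjusted p = 0.104) or 2 (0.17) and without colon library 1 (0.0629), 2 (0.122) or 3 (0.141), and with RLE factors (0.0855), without a filter (0.104), at a minimum count of 30 (0.0633), over protein-coding genes (0.0678) and with the 6 libraries fitted alone (0.204). *Hnf4g* lost its call without colon library 2 (adjusted p = 0.0675). *Gata4* lost its call without ileum library 1 (adjusted p = 0.0728) and without colon library 1 (0.0699) or 3 (0.101). *Klf4* lost its call without ileum library 1 (adjusted p = 0.175) or 3 (0.16) and without colon library 1 (0.206) or 2 (0.073), and with library size alone (0.203) and with the 6 libraries fitted alone (0.0508). *Gata4* had a log2 fold change of 3.88 without colon library 2. *Hnf4a* had a log2 fold change of 1.52 with library size alone. *Klf4* had a log2 fold change of -0.67 with library size alone.

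Bile acid recovery is a function of the distal ileum, where the transporter encoded by *Slc10a2* takes bile acids up from the lumen, the binding protein encoded by *Fabp6* carries them across the cell, the *Slc51a* and *Slc51b* products pass them to the blood, and the receptor FXR (*Nr1h4*) turns on the hormone gene *Fgf15*. Of 10 tested genes of this system 7 were higher in the ileum (3.02% of all tested genes were) and none in the colon, with a median log2 fold change of 2.61. *Fabp6* was at 119, 167 and 172 CPM in the ileum and 7.91, 1.83 and 2.98 CPM in the colon (5.21 ± 0.69, adjusted p = 3.83e-06). *Slc10a2* was at 16.5, 49.5 and 64.8 CPM in the ileum and 9.23, 5.13 and 12.1 CPM in the colon (2.31 ± 0.50, adjusted p = 0.00307). The uptake carrier was counted in every colonic library, and ileum library 1 was the lowest ileal library for both genes. *Slc51a* was at 18.1, 30.7 and 28.7 CPM in the ileum and 2.76, 1.68 and 4.17 CPM in the colon (3.17 ± 0.40, adjusted p = 2.13e-06). *Slc51b* was at 16.997, 35.1 and 28.7 CPM in the ileum and 3.24, 3.003 and 4.42 CPM in the colon (2.92 ± 0.49, adjusted p = 0.000156). The canalicular-type exporter *Abcc2* was at 9.12, 6.52 and 6.71 CPM in the ileum and 0.24, 0.439 and 0.085 CPM in the colon (4.78 ± 0.48, adjusted p = 2.91e-08). *Nr1h4* itself was at 26.8, 28.3 and 31.4 CPM in the ileum and 16.2, 11.4 and 12.2 CPM in the colon, a smaller difference without overlap (1.12 ± 0.28, adjusted p = 0.0131). *Fgf15* had no count in the colon and 1.07, 1.23 and 0.111 CPM in the ileum, at least 10.04-fold higher over the group. *Abcc3*, an exporter of the basolateral side, was at 15.97, 19.5 and 16.9 CPM in the ileum and 30.8, 34.3 and 32.9 CPM in the colon and missed the threshold in the direction of the colon (-0.90 ± 0.30, adjusted p = 0.0805). *Nr1h4* lost its call without colon library 2 (adjusted p = 0.125) or 3 (0.0574) and without a filter (0.0597) and with the 6 libraries fitted alone (0.0938). *Fgf15* lost its call without ileum library 1 (adjusted p = 0.0512) or 2 (0.0677) and without colon library 1 (0.0565), 2 (0.0864) or 3 (0.0737).

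Vitamin B12 is taken up in the ileum by a complex of cubilin and amnionless. *Cubn*, for cubilin, was at 29.4, 41.97 and 53.6 CPM in the ileum and 1.198, 1.32 and 0.765 CPM in the colon, and the regions did not overlap (5.24 ± 0.53, adjusted p = 4.66e-08). *Amn*, for amnionless, was at 9.82, 10.5 and 20.5 CPM in the ileum and 1.92, 8.28 and 14.9 CPM in the colon and overlapped (0.68 ± 0.44, adjusted p = 0.479). The other 6 tested genes of vitamin B12 uptake were not called.

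Brush border hydrolases cut sugars and peptides at the surface of enterocytes. Of 21 tested genes 14 were higher in the ileum and none in the colon, with a median log2 fold change of 2.496. Over all tested genes 3.02% were called towards the ileum. The aminopeptidase genes *Enpep* and *Anpep* showed the largest differences after *Sis*. *Enpep* was at 63.1, 124 and 104 CPM in the ileum and 2.52, 2.27 and 3.32 CPM in the colon (5.16 ± 0.43, adjusted p = 1.89e-09). *Anpep* was at 125, 415 and 239.5 CPM in the ileum and 10.5, 9.38 and 7.65 CPM in the colon (4.82 ± 0.54, adjusted p = 2.77e-07). Ileum library 1 was the lowest of the ileal libraries for both, and still above every colonic library. *Naaladl1*, a dipeptidase gene, was at 115, 157 and 133 CPM in the ileum and 13.1, 11.2 and 9.61 CPM in the colon (3.58 ± 0.38, adjusted p = 1.09e-07). The trehalase gene *Treh* was at 1.77, 3.53 and 3.22 CPM in the ileum and 0, 0 and 0.34 CPM in the colon (4.49 ± 0.78, adjusted p = 0.000229). *Mgam*, for maltase-glucoamylase, was counted well above the floor in both regions, at 515, 340.3 and 307 CPM in the ileum and 84.7, 73.2 and 48.1 CPM in the colon (2.496 ± 0.32, adjusted p = 3.19e-06). The subunits of meprin, a metalloprotease, differed to unequal degrees. *Mep1b* was at 41.1, 92.3 and 103 CPM in the ileum and 4.79, 11.2 and 19.6 CPM in the colon (2.72 ± 0.44, adjusted p = 8.8e-05). *Mep1a* was at 48.8, 59.1 and 45.5 CPM in the ileum and 24.1, 18.02 and 19.7 CPM in the colon (1.31 ± 0.31, adjusted p = 0.0068). *Ggt1*, *Mme*, *Xpnpep2*, *Ace* and *Cndp2* were called too, with log2 fold changes of 4.14, 3.10, 2.85, 2.22 and 2.05. *Dpp4* was at 41.6, 64.01 and 87.9 CPM in the ileum and 34.04, 22.2 and 37.1 CPM in the colon and missed the threshold (1.05 ± 0.33, adjusted p = 0.0624). *Lct*, for lactase, was low and overlapping, at 1.16, 0.423 and 0.443 CPM in the ileum and 2.76, 1.25 and 0.85 CPM in the colon. *Treh* lost its call with the 6 libraries fitted alone (adjusted p = 0.0546). *Mep1a* lost its call without colon library 2 (adjusted p = 0.0823). *Xpnpep2* lost its call without colon library 2 (adjusted p = 0.0577) or 3 (0.0663), and with DESeq2 (0.0568) and with the 6 libraries fitted alone (0.163). *Treh* had all its colonic reads in library 3, and its fitted size depends on that library. *Xpnpep2* had a log2 fold change of 5.78 without colon library 1.

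Of 29 tested carriers of sugars, amino acids and small anions, 10 were called towards the ileum, none of them a carrier of sugar, and 1 towards the colon. The shares of all tested genes were 3.02% and 2.22%. *Slc7a9*, the light chain of the cystine carrier, was at 10.1, 22.9 and 18.8 CPM in the ileum and 0.36, 0.439 and 0.595 CPM in the colon (5.17 ± 0.43, adjusted p = 1.52e-09). Its heavy chain *Slc3a1* was at 8.83, 12.6 and 25.8 CPM in the ileum and 0.12, 2.78 and 2.55 CPM in the colon (3.03 ± 0.49, adjusted p = 9.4e-05). *Slc34a2*, the sodium-phosphate cotransporter of the ileum, was at 13.4, 36.6 and 27.1 CPM in the ileum and 1.08, 0.879 and 1.701 CPM in the colon (4.39 ± 0.51, adjusted p = 4.64e-07). *Slc6a19*, a neutral amino acid carrier, was at 2.48, 13.4 and 13.97 CPM in the ileum and 1.68, 1.03 and 1.02 CPM in the colon (3.03 ± 0.55, adjusted p = 0.000423), with ileum library 1 close to the colonic libraries. *Slc6a20a*, *Slc43a2*, *Slc13a1*, *Slc7a8*, *Slc1a1* and *Slc6a6* were higher in the ileum by 3.55, 3.16, 2.42, 2.14, 2.02 and 0.89 on the log2 scale. *Slc5a1*, the sodium-glucose cotransporter SGLT1, was at 76.9, 95.7 and 103 CPM in the ileum and 35.4, 39.6 and 60.04 CPM in the colon, a difference without overlap that missed the threshold (1.03 ± 0.32, adjusted p = 0.058). *Slc15a1*, the peptide carrier PEPT1, overlapped at 6.52, 16.8 and 16.2 CPM in the ileum and 6.35, 2.78 and 8.76 CPM in the colon (1.15 ± 0.40, adjusted p = 0.0949). *Slc6a14* went the other way: this carrier of neutral and cationic amino acids was at 1.73, 2.15 and 3.16 CPM in the ileum and 69.9, 66.3 and 118 CPM in the colon (-5.18 ± 0.50, adjusted p = 1.71e-08). *Slc7a8* lost its call with the 6 libraries fitted alone (adjusted p = 0.134). *Slc6a6* lost its call without ileum library 1 (adjusted p = 0.106) or 2 (0.174) and without colon library 1 (0.0795) or 3 (0.146), and with RLE factors (0.0718), without a filter (0.235), at a minimum count of 30 (0.0537), over protein-coding genes (0.0549) and with the 6 libraries fitted alone (0.296). *Slc1a1* lost its call without colon library 2 (adjusted p = 0.0588). *Slc6a6* had a log2 fold change of 1.44 with library size alone.

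Fat absorption takes up cholesterol and fatty acids, rebuilds triglyceride and packs it into chylomicrons. Of 26 tested genes 11 were higher in the ileum and 1 in the colon, against 3.02% and 2.22% of all tested genes. *Apoa1*, for apolipoprotein A-I, a protein of high-density lipoprotein that enterocytes also secrete, was at 67.2, 203 and 216 CPM in the ileum and 10.8, 5.27 and 5.697 CPM in the colon (4.49 ± 0.50, adjusted p = 2.51e-07). *Apob*, for the core protein of the chylomicron, was at 112, 177 and 191 CPM in the ileum and 31.04, 15.9 and 18.7 CPM in the colon (2.87 ± 0.42, adjusted p = 1.8e-05). Neither overlapped between regions. *Mttp*, which loads lipid onto apolipoprotein B, was at 28.7, 52.7 and 40.1 CPM in the ileum and 1.798, 1.61 and 2.04 CPM in the colon (4.47 ± 0.42, adjusted p = 1.5e-08). *Npc1l1*, the cholesterol importer, was at 19.3, 37.5 and 25.9 CPM in the ileum and 1.198, 0.659 and 0.34 CPM in the colon (5.29 ± 0.45, adjusted p = 1.89e-09), and the sterol exporters *Abcg5* (3.04 ± 0.34, adjusted p = 2.89e-07) and *Abcg8* (3.45 ± 0.53, adjusted p = 4.47e-05) moved with it. The triglyceride synthesis genes *Mogat2* (3.08 ± 0.52, adjusted p = 0.000148) and *Dgat1* (1.57 ± 0.32, adjusted p = 0.00145) were higher in the ileum too, and so were *Slc27a2* (2.34), *Cideb* (1.86) and *Agpat2* (1.24), given as log2 fold changes. *Fabp2*, the fatty acid binding protein of enterocytes, was not called and overlapped at 40.4, 65.5 and 158 CPM in the ileum and 67.5, 106 and 105 CPM in the colon. *Scarb1*, the lipoprotein receptor SR-BI, was higher in the colon at 8.27, 7.54 and 3.15 CPM against 0.578, 0.776 and 0.166 CPM (-3.58 ± 0.79, adjusted p = 0.0042). Among 28 tested genes of cholesterol synthesis and handling, *Npc1l1* and the sterol esterification gene *Soat2* (3.11) were called, a share near the 5.24% of all tested genes. The synthesis gene *Hmgcs1*, at 30.6, 38.97 and 69.3 CPM in the ileum and 42.8, 24.5 and 47.96 CPM in the colon, overlapped between regions, and so did *Sqle*. *Cideb* lost its call with the 6 libraries fitted alone (adjusted p = 0.0687). *Agpat2* lost its call without ileum library 2 (adjusted p = 0.0813) and without colon library 1 (0.128) or 2 (0.136), and with the 6 libraries fitted alone (0.16). *Abcg8* had a log2 fold change of 5.82 without colon library 3.

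Paneth cell products were counted in the Venus-negative cells of the ileum. They were far higher in Venus-positive cells there, with means of 1720 CPM for *Lyz1* and 3788 CPM for *Defa24*. Carry-over of positive cells or their RNA cannot be told apart here from expression in negative cells. The same limit holds for *Anpep* and *Apoa1*, at 4577 and 3569 CPM in positive cells of the ileum. Of 22 tested genes listed for Paneth cells 14 were higher in the ileum, and *Mptx1* and *Nupr1* were higher in the colon, against 3.02% and 2.22% of all tested genes. Of the 22, 6 were at or under the floor in 1 region and passed the filter through the other, so nothing is read from the share. *Defa24*, an alpha-defensin, was at 249, 121 and 137 CPM in the ileum and 17.02, 5.86 and 4.93 CPM in the colon (4.20 ± 0.70, adjusted p = 0.000124). *Lyz1*, the lysozyme of Paneth cells, was at 96.8, 63.9 and 87.4 CPM in the ileum and 7.43, 2.34 and 2.98 CPM in the colon (4.31 ± 0.76, adjusted p = 0.000271). Both were counted in every colonic library, with the most in colon library 1. *Defa21* was at 32.8, 15.4 and 12.97 CPM in the ileum and 0.719, 0.366 and 0.085 CPM in the colon (5.78 ± 0.79, adjusted p = 6.7e-06). *Defa22* was at 21.9, 8.89 and 10.98 CPM in the ileum and 0.24, 0.22 and 0.17 CPM in the colon (6.01 ± 0.83, adjusted p = 8.55e-06). *Defa30* was at 43.6, 30.01 and 23.7 CPM in the ileum and 4.91, 0.952 and 1.19 CPM in the colon (3.85 ± 0.73, adjusted p = 0.000739). Alpha-defensin genes are near copies of each other and reads that fit several copies can be lost or misplaced, so the values of single family members are uncertain. *Mptx2*, the small intestinal relative of *Mptx1*, took the opposite direction to it at 14.1, 13.05 and 10.9 CPM in the ileum and 0.959, 0.586 and 0.34 CPM in the colon (4.38 ± 0.79, adjusted p = 0.000379). *Mmp7*, the protease that activates defensins, was at 7.18, 6.42 and 9.26 CPM in the ileum and 1.44, 0.806 and 0.68 CPM in the colon (3.002 ± 0.65, adjusted p = 0.0034). The lectin gene *Itln1* was at 38.1, 22.4 and 31.3 CPM in the ileum and 2.76, 9.67 and 0.935 CPM in the colon (2.75 ± 0.78, adjusted p = 0.0313). *Defa26* had 2 counts in the colon, a ratio of 33.2 with a 95% counting interval from 9.02 to 277, and *Defa34* none, at least 10.8-fold higher in the ileum over the group. With genes under the floor set at their bound or count ratio the median of the list was 3.05, against 4.26 as fitted. *Ang4*, which encodes a microbicidal ribonuclease, was at 16.8, 10.5 and 9.37 CPM in the ileum and 18.8, 234 and 4.25 CPM in the colon. Its colonic libraries spanned both sides of the ileal ones, with library 2 far above the others (-2.81 ± 0.91, adjusted p = 0.0704). *Itln1* lost its call without ileum library 1 (adjusted p = 0.0835) and without colon library 1 (0.135) or 3 (0.142). *Nupr1* lost its call without ileum library 3 (adjusted p = 0.0501) and without colon library 1 (0.0778). *Defa26* lost its call without colon library 2 (adjusted p = 0.0535) or 3 (0.0512), and with the 6 libraries fitted alone (0.0523). *Defa34* lost its call without ileum library 1 (adjusted p = 0.0555) and without colon library 2 (0.0817) or 3 (0.0592), and with the 6 libraries fitted alone (0.0821).

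Epithelial responses to microbes did not follow 1 direction. Of 20 tested Reg lectins and microbe-responsive genes, 5 were higher in the ileum and 3 in the colon, against 3.02% and 2.22% of all tested genes. Over the alternatives these counts were 5 to 7 towards the ileum and 1 to 5 towards the colon. Of the 20, 4 were at or under the floor in 1 region. The lectins of the Reg3 family, which bind bacteria, were higher in the ileum, with library 1 the lowest there. *Reg3b* was at 387, 2116 and 1553 CPM in the ileum and 21.6, 26.2 and 41.5 CPM in the colon (5.50 ± 0.72, adjusted p = 3.31e-06). *Reg3g* was at 190.3, 1117 and 712.01 CPM in the ileum and 12.9, 12.96 and 24.2 CPM in the colon (5.33 ± 0.74, adjusted p = 9.12e-06). *Reg3a* was at 3.05, 4.73 and 7.04 CPM in the ileum and had 3 counts in the colon, a ratio of 53.4 with a 95% counting interval from 18.1 to 260.1. The Reg3 genes share sequence, so their separate values are uncertain. *Reg4*, a lectin of secretory cells, went towards the colon at 13.8, 8.46 and 8.204 CPM in the ileum and 16.9, 89.7 and 30.6 CPM in the colon (-2.17 ± 0.65, adjusted p = 0.0444). *Retnlb*, the goblet cell product RELM-beta, was at 0.124, 4.69 and 0.277 CPM in the ileum and 2.996, 249 and 2.64 CPM in the colon (-5.58 ± 2.04, adjusted p = 0.121). For *Retnlb* colon library 2 carried nearly all of the counts, and no call was made. *Il18*, a cytokine gene of the epithelium, was higher in the colon at 1.65, 4.62 and 4.32 CPM in the ileum and 10.5, 20.8 and 15.1 CPM in the colon (-2.14 ± 0.36, adjusted p = 0.00018). *Lypd8*, which keeps flagellated bacteria from the colonic surface, was at 157, 256 and 269.7 CPM in the ileum and 343, 351 and 531 CPM in the colon, without overlap but not called (-0.84 ± 0.35, adjusted p = 0.195). *Duox2*, an oxidase that makes hydrogen peroxide, was at 31.2, 82.03 and 41.6 CPM in the ileum and 16.7, 17.4 and 13.6 CPM in the colon and not called (1.70 ± 0.63, adjusted p = 0.126). *Pigr*, the transporter of IgA, was not called at 1027, 840.2 and 578 CPM in the ileum and 975, 739.9 and 513 CPM in the colon, with a 95% interval from -0.48 to 0.75. Of 28 tested sensors of microbes and their effectors, 3 were higher in the ileum, *Ddx58* (1.58), *Nlrp1b* (1.53) and *Nlrc4* (0.89), and 2 in the colon, the gasdermin genes *Gsdmc2* (-2.13) and *Gsdmc4* (-2.13), which are near copies. Over all tested genes 3.02% were called towards the ileum and 2.22% towards the colon. The ileal count of the sensors was 1 with RLE factors, 0 with the 6 libraries fitted alone, 5 with DESeq2 and 10 with library size alone. With each library left out in turn the list had at most 2 calls towards the ileum. The receptors of bacterial lipids were not called, with *Tlr4* at 1.32, 0.846 and 0.665 CPM in the ileum and 1.198, 3.96 and 7.91 CPM in the colon. *Tlr2* was at 0.866, 1.55 and 2.22 CPM in the ileum and 2.64, 3.37 and 5.36 CPM in the colon. *Reg4* lost its call without ileum library 1 (adjusted p = 0.0745), 2 (0.177) or 3 (0.134) and without colon library 2 (0.291), and with library size alone (0.0911). *Nlrc4* lost its call without ileum library 2 (adjusted p = 0.121) or 3 (0.0701) and without colon library 2 (0.243) or 3 (0.113), and with RLE factors (0.0866), without a filter (0.269), at a minimum count of 30 (0.0614), over protein-coding genes (0.063) and with the 6 libraries fitted alone (0.285). *Nlrp1b* lost its call without ileum library 1 (adjusted p = 0.229) or 2 (0.0907) and without colon library 1 (0.194), 2 (0.0571) or 3 (0.0892), and with RLE factors (0.0704), without a filter (0.15), at a minimum count of 30 (0.0626), over protein-coding genes (0.0636) and with the 6 libraries fitted alone (0.614). *Ddx58* lost its call without colon library 2 (adjusted p = 0.0517), and with the 6 libraries fitted alone (0.208). *Gsdmc2* lost its call without ileum library 1 (adjusted p = 0.142) or 3 (0.0868) and without colon library 2 (0.121), and with library size alone (0.0603) and with DESeq2 (0.118). *Gsdmc4* lost its call without ileum library 1 (adjusted p = 0.106) or 2 (0.0519) and without colon library 2 (0.053) or 3 (0.0621). *Nlrc4* had a log2 fold change of 1.35 with library size alone. *Reg3a* had all its colonic reads in library 3, and its ratio rests on that library. *Reg4* had a log2 fold change of -1.36 without colon library 2.

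Genes of antigen presentation on MHC class II stood high in the ileum. Of 10 tested genes 7 were higher in the ileum, against 3.02% of all tested genes, and none in the colon. The median log2 fold change of the 10 was 5.26, and the count of 7 was the same in every alternative fit. Of the 10, 2 were at or under the floor in 1 region and passed the filter through the other, so nothing is read from the share. *Cd74*, the invariant chain, was at 61.7, 199 and 83.8 CPM in the ileum and 0.24, 1.98 and 2.98 CPM in the colon (5.99 ± 0.84, adjusted p = 1.01e-05). The class II chain gene *H2-Ab1* was at 21.6, 93.9 and 58.5 CPM in the ileum and 1.08, 0.659 and 0.85 CPM in the colon (6.09 ± 0.79, adjusted p = 3.15e-06). *H2-Aa* was at 3.51, 26.3 and 12.2 CPM in the ileum and 0, 0 and 0.765 CPM in the colon (5.68 ± 1.06, adjusted p = 0.000613). Ileum library 2 was the highest and library 1 the lowest ileal library for each of these. *Ciita*, the master activator of these genes, was at 4.25, 9.84 and 1.996 CPM in the ileum with no count in the colon, at least 66.6-fold higher over the group. *H2-Eb1* (4.20 ± 0.93, adjusted p = 0.00417), *H2-DMa* (4.83 ± 1.002, adjusted p = 0.00201) and *H2-DMb1* completed the called set, the last with 2 counts in the colon and a ratio of 77.9 with a 95% counting interval from 21.4 to 646. The interferon receptor gene *Ifngr1* overlapped, at 45.01, 37.6 and 55.9 CPM in the ileum and 42.7, 27.2 and 44.05 CPM in the colon. So did *Ctss*, for a protease of antigen processing, at 19.9, 29.5 and 47.8 CPM in the ileum and 29.1, 35.2 and 46.1 CPM in the colon. Class II genes are also used by B cells and myeloid cells, so their markers are given beside this result. The B cell gene *Ms4a1* was at 0.124, 1.305 and 0.166 CPM in the ileum and 0, 0.732 and 0 CPM in the colon. The pan-leukocyte gene *Ptprc* was at 1.53, 3.42 and 0.942 CPM in the ileum and 0.12, 0.513 and 1.19 CPM in the colon. The myeloid gene *Cd68* was at 1.69, 0.388 and 0.166 CPM in the ileum and 1.08, 0.146 and 0.085 CPM in the colon. The summed level of the 18 B and plasma cell genes was 4.16 to 22.01 CPM in the ileum and 2.397 to 9.18 CPM in the colon, and that of the 18 myeloid genes 3.71 to 4.99 CPM in the ileum and 1.198 to 3.74 CPM in the colon. B and T cell sums were highest in ileum library 2. Without that library the 7 class II genes were called as well, and the part of immune cells, which the other ileal libraries also held, was not tested. *Ccl25*, the chemokine that calls lymphocytes to the small intestine, was at 145, 129 and 214 CPM in the ileum and 8.15, 9.08 and 8.76 CPM in the colon (4.23 ± 0.32, adjusted p = 2.09e-10), the second called chemokine-list gene in this direction being *Tnfsf10* (1.98). *Ccl6* (-1.65) and *Il1rn* (-3.88) were higher in the colon, and *Ccl28*, the mucosal chemokine for plasma cells, overlapped at 23.6, 20.6 and 33.6 CPM in the ileum and 39.9, 20.1 and 27.5 CPM in the colon. *Ccl6* lost its call without ileum library 1 (adjusted p = 0.108) or 2 (0.0914) and without colon library 2 (0.0528) or 3 (0.066), and with library size alone (0.071). *H2-Aa* had all its colonic reads in library 3, and its fitted size depends on that library. *H2-DMa* had all its colonic reads in library 3, and its fitted size depends on that library.

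Enteroendocrine cells release peptide hormones, and their mix changes along the gut. Of 13 tested hormone genes 5 were higher in the ileum and 2 in the colon, against 3.02% and 2.22% of all tested genes. *Nts*, for neurotensin, was at 24.4, 71.7 and 66.96 CPM in the ileum and 0.959, 5.57 and 0.51 CPM in the colon (4.47 ± 0.67, adjusted p = 3.12e-05). *Cck*, for cholecystokinin, was at 1.65, 6.59 and 2.66 CPM in the ileum and 0.12, 0.806 and 0.255 CPM in the colon (3.07 ± 0.65, adjusted p = 0.00239). *Gip*, the incretin of proximal K cells, was at 3.34, 6.701 and 3.88 CPM in the ileum and 0.599, 0.366 and 0.34 CPM in the colon (3.45 ± 0.60, adjusted p = 0.000211). Every colonic library lay below the ileal ones for these, and ileum library 1 was the lowest of its region. *Sst*, for somatostatin, was at 48.4, 102 and 41.7 CPM in the ileum and 9.71, 26.9 and 23.5 CPM in the colon (1.67 ± 0.50, adjusted p = 0.0462). *Sct*, for secretin, was at 5.86, 9.38 and 12.97 CPM in the ileum and 5.63, 1.98 and 2.13 CPM in the colon (1.57 ± 0.47, adjusted p = 0.0456). *Insl5*, the hormone of colonic L cells, was at 4.43, 25.8 and 11.8 CPM in the colon with 2 counts in the ileum, a ratio of 552 with a 95% counting interval from 152 to 4573. *Pyy*, for peptide YY, was at 1.94, 7.79 and 3.94 CPM in the ileum and 22.2, 34.8 and 14.7 CPM in the colon (-2.39 ± 0.64, adjusted p = 0.024). *Gcg*, for the proglucagon that gives GLP-1, overlapped between regions at 25.7, 60.5 and 61.3 CPM in the ileum and 6.71, 41.6 and 22.6 CPM in the colon (1.05 ± 0.53, adjusted p = 0.335). *Tph1*, the enzyme of serotonin synthesis in enterochromaffin cells, was higher in the colon at 10.5, 15.4 and 7.76 CPM in the ileum and 39.4, 35.4 and 46.7 CPM in the colon (-1.85 ± 0.37, adjusted p = 0.00145). *Chga* and *Chgb*, for granule proteins, did not pass the threshold. *Chga* was at 115, 118 and 42.7 CPM in the ileum and 251, 190.4 and 123 CPM in the colon (-1.03 ± 0.49, adjusted p = 0.29). *Chgb* was at 245, 287 and 86.6 CPM in the ileum and 519, 367 and 279 CPM in the colon (-0.91 ± 0.52, adjusted p = 0.41). Of 39 tested genes of enteroendocrine transcription, granules and nutrient sensing, *Tph1* and the secretogranin gene *Scg2* (2.12, towards the ileum) were the 2 called, a share near the 5.24% of all tested genes, and *Neurod1* was at 2.76, 7.8997 and 2.38 CPM in the ileum and 0.479, 3.66 and 4.25 CPM in the colon. The count of hormone genes higher in the ileum fell to 3 without ileum library 2, colon library 2 or colon library 3. Across the alternatives, the hormone list had 2 to 7 called genes towards the ileum and 1 to 2 towards the colon, and the list of transcription, granules and sensing 0 to 2 called genes towards the ileum and 1 to 3 towards the colon. *Cck* lost its call with the 6 libraries fitted alone (adjusted p = 0.0861). *Insl5* lost its call with DESeq2 (adjusted p = 0.052). *Sst* lost its call without ileum library 1 (adjusted p = 0.0508) or 2 (0.312) and without colon library 1 (0.212), 2 (0.0839) or 3 (0.0832), and with RLE factors (0.0623), at a minimum count of 30 (0.0782), over protein-coding genes (0.0682) and with the 6 libraries fitted alone (0.0674). *Sct* lost its call without ileum library 2 (adjusted p = 0.1) or 3 (0.158) and without colon library 2 (0.245) or 3 (0.182), and with RLE factors (0.0823), with DESeq2 (0.0533), at a minimum count of 30 (0.0806), over protein-coding genes (0.0737) and with the 6 libraries fitted alone (0.18). *Pyy* lost its call without ileum library 1 (adjusted p = 0.141) or 3 (0.0817) and without colon library 2 (0.0901). *Scg2* lost its call without ileum library 2 (adjusted p = 0.272) and without colon library 1 (0.0957), 2 (0.0956) or 3 (0.0951), and with the 6 libraries fitted alone (0.117).

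Ion and water transport moved towards the colon in part. Of 38 tested genes 10 were higher in the colon and 3 in the ileum, against 2.22% and 3.02% of all tested genes. The colonic count was 7 with library size alone and 16 with DESeq2, the lowest and highest over the alternatives. *Car1*, a carbonic anhydrase of colonocytes, was at 19.3, 1.48 and 0.333 CPM in the ileum and 218, 74.1 and 175 CPM in the colon (-4.46 ± 1.03, adjusted p = 0.00617), and most of the ileal reads came from library 1. *Scnn1a*, the alpha subunit of the epithelial sodium channel, was at 1.36, 0.846 and 1.16 CPM in the ileum and 15.1, 8.203 and 7.99 CPM in the colon (-3.20 ± 0.49, adjusted p = 4.22e-05). *Hsd11b2*, the enzyme that protects the aldosterone receptor from cortisol-type steroids, was at 4.37, 5.75 and 3.71 CPM in the ileum and 28.3, 17.6 and 17.6 CPM in the colon (-2.19 ± 0.63, adjusted p = 0.0366). The receptor *Nr3c2* itself overlapped, at 18.6, 19.3 and 12.2 CPM in the ileum and 29.1, 22.6 and 17.2 CPM in the colon. *Slc5a8*, the sodium-coupled carrier of butyrate, was at 12.005, 20.9 and 30.9 CPM in the ileum and 67.8, 69.4 and 106 CPM in the colon (-1.93 ± 0.44, adjusted p = 0.00553). *Slc16a1*, the proton-coupled one, was at 25.5, 28.2 and 38.6 CPM in the ileum and 46.02, 47.6 and 75.3 CPM in the colon, without overlap but not called (-0.87 ± 0.33, adjusted p = 0.147). Both water channel genes of the list that were called were higher in the colon. *Aqp4* was at 29.6, 26.8 and 42.7 CPM in the ileum and 82.7, 91.04 and 103 CPM in the colon (-1.48 ± 0.33, adjusted p = 0.00384). *Aqp8* was at 0.165, 0 and 0 CPM in the ileum and 4.67, 2.56 and 9.099 CPM in the colon (-6.39 ± 1.30, adjusted p = 0.0016). *Atp12a*, the colonic proton-potassium pump, was at 0.0825, 0.317 and 0 CPM in the ileum and 8.63, 4.39 and 12.9 CPM in the colon (-5.81 ± 0.86, adjusted p = 4.16e-05). The chloride channel gene *Ano1* was at 0.619, 1.34 and 0.61 CPM in the ileum and 33.8, 18.5 and 11.5 CPM in the colon (-4.59 ± 0.64, adjusted p = 9.66e-06). *Slc26a3*, the chloride-bicarbonate exchanger, was at 10.9, 7.76 and 7.54 CPM in the ileum and 19.9, 11.5 and 29.9 CPM in the colon and missed the threshold (-1.22 ± 0.39, adjusted p = 0.0668). *Car4*, a carbonic anhydrase of the cell surface, overlapped at 8.13, 16.1 and 13.6 CPM in the ileum and 14.6, 12.8 and 22.4 CPM in the colon. The potassium channel gene *Kcnma1*, at 1.16, 0.635 and 0.333 CPM in the ileum and 2.64, 4.61 and 1.36 CPM in the colon, was called towards the colon (-1.999 ± 0.58, adjusted p = 0.0356). *Cftr* and *Slc12a2*, which serve chloride secretion, were not called. *Cftr*, for a chloride channel, was at 87.9, 67.1 and 87.7 CPM in the ileum and 93.5, 67.7 and 97.6 CPM in the colon, with a 95% interval from -0.80 to 0.62. *Slc12a2*, for the cotransporter that loads the cell with chloride, was at 369, 185 and 349 CPM in the ileum and 330.3, 246 and 315 CPM in the colon, with an interval from -0.73 to 0.76. *Clca4b* (4.38 ± 0.51, adjusted p = 4.6e-07), *Tmigd1* (2.69 ± 0.50, adjusted p = 0.00056) and the exchanger *Slc26a6* went towards the ileum, the last with 2 counts in the colon and a ratio of 51.6 with a 95% counting interval from 14.1 to 429. *Hsd11b2* lost its call without ileum library 1 (adjusted p = 0.131), 2 (0.0905) or 3 (0.116) and without colon library 1 (0.125) or 3 (0.0539), and with library size alone (0.0786). *Slc5a8* lost its call without ileum library 1 (adjusted p = 0.0568). *Aqp4* lost its call with library size alone (adjusted p = 0.0558). *Kcnma1* lost its call without ileum library 2 (adjusted p = 0.158) or 3 (0.149) and without colon library 1 (0.0515) or 2 (0.181), and with library size alone (0.122) and with the 6 libraries fitted alone (0.236). *Car1* had a log2 fold change of -7.33 without ileum library 1. *Slc26a6* had all its colonic reads in library 2, and its ratio rests on that library.

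Genes of goblet cells and mucus were higher in the colon where they were called. In the paper's staining a smaller share of goblet cells was Venus-positive in the colon than in the ileum. The sort may thus have left more goblet cells among colonic negative cells, which cannot be told apart here from a regional difference. Of 32 tested genes 13 were higher in the colon, against 2.22% of all tested genes, and none in the ileum. The median log2 fold change was -1.72, and the count was 10 with library size alone and 21 without a filter, the extremes over the alternatives. *Muc2*, the main gel-forming mucin, was at 8.46, 16.7 and 15.2 CPM in the ileum and 126, 80.4 and 58.9 CPM in the colon (-2.72 ± 0.43, adjusted p = 7.38e-05). *Clca1*, a secreted protease of the mucus, was at 32.8, 50.3 and 49.2 CPM in the ileum and 287, 519 and 179.7 CPM in the colon (-2.90 ± 0.43, adjusted p = 2.82e-05). *Agr2*, the disulphide isomerase that folds mucin, was at 46.04, 64.6 and 67.7 CPM in the ileum and 218, 528 and 270.4 CPM in the colon (-2.51 ± 0.41, adjusted p = 9.96e-05). Colonic libraries were the higher for all of these, with library 2 the highest for *Clca1* and *Agr2*. The transcription factor gene *Spdef* was at 1.03, 1.41 and 0.443 CPM in the ileum and 5.15, 7.91 and 4.34 CPM in the colon (-2.56 ± 0.47, adjusted p = 0.000553). *Creb3l1* was at 9.16, 8.92 and 7.21 CPM in the ileum and 56.2, 53.9 and 38.01 CPM in the colon (-2.55 ± 0.29, adjusted p = 3.81e-07). *Klk1*, a kallikrein, was at 3.05, 2.26 and 1.83 CPM in the ileum and 30.3, 27.8 and 51.5 CPM in the colon (-3.93 ± 0.54, adjusted p = 7.1e-06). *Spink4*, a protease inhibitor, was at 32.5, 29.6 and 35.2 CPM in the ileum and 41.9, 233 and 72.5 CPM in the colon (-1.84 ± 0.52, adjusted p = 0.0303), with colon library 2 apart from the others. *Tff3*, the trefoil factor of goblet cells in both regions, was not called at 32.9, 28.04 and 46.3 CPM in the ileum and 36.6, 44.8 and 45.3 CPM in the colon, with a 95% interval from -0.96 to 0.48. *Atoh1*, the switch of secretory fate, was at 1.86, 1.305 and 2.44 CPM in the ileum and 0.719, 6.299 and 4.76 CPM in the colon, and colon library 1 lay under the ileal libraries (-1.12 ± 0.52, adjusted p = 0.265). *Fcgbp* and *Zg16*, for proteins of the mucus layer, did not pass the threshold. *Fcgbp* was at 118, 129 and 125 CPM in the ileum and 340.4, 349.7 and 156 CPM in the colon (-1.18 ± 0.42, adjusted p = 0.103). *Zg16* was at 33.8, 44.6 and 49.7 CPM in the ileum and 81.6, 85.8 and 139.6 CPM in the colon (-1.26 ± 0.40, adjusted p = 0.0611). *Spink4* lost its call without ileum library 1 (adjusted p = 0.1), 2 (0.131) or 3 (0.0683) and without colon library 2 (0.333), and with library size alone (0.088). *Spink4* had a log2 fold change of -0.95 without colon library 2.

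*Guca2a*, which is on the goblet list and whose promoter defined the sort, was counted in these negative cells at 23.5, 22.5 and 32.6 CPM in the ileum and 69.5, 94.3 and 120.5 CPM in the colon (-1.86 ± 0.33, adjusted p = 0.000333). It was higher in the colon in all 3 libraries, while Venus-positive cells held 191 ± 30.1 CPM in the ileum and 612 ± 95.7 CPM in the colon (mean and SD of 3). That positive cells held more is what the sort selected. Reads on the untranslated ends, which the transgene may share, cannot be told apart from those of the native gene. *Guca2b*, for the related peptide uroguanylin, overlapped at 23.5, 26.4 and 42.02 CPM in the ileum and 28.5, 21.9 and 34.4 CPM in the colon, with a 95% interval from -0.48 to 0.71. *Gucy2c*, for their receptor guanylyl cyclase C, overlapped at 72.4, 77.4 and 48.1 CPM in the ileum and 60.6, 65.9 and 48.5 CPM in the colon, with an interval from -0.32 to 0.68. *Prkg2*, the cyclic GMP-dependent kinase that acts after the receptor, was at 19.8, 18.1 and 14.1 CPM in the ileum and 9.35, 9.595 and 4.51 CPM in the colon (1.15 ± 0.35, adjusted p = 0.0483). *Prkg2* lost its call without ileum library 1 (adjusted p = 0.152) or 2 (0.131) and without colon library 1 (0.0614), 2 (0.0834) or 3 (0.229), and with RLE factors (0.0955), with DESeq2 (0.0604), at a minimum count of 30 (0.0828), over protein-coding genes (0.0759) and with the 6 libraries fitted alone (0.18).

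The enzymes that build and end mucin sugars were called in both directions. Of 40 tested genes 13 were higher in the colon and 3 in the ileum, against 2.22% and 3.02% of all tested genes. The list had 2 to 5 called genes towards the ileum and 12 to 15 towards the colon over the alternatives. The sialyltransferase gene *St6galnac6* was at 0.66, 0.529 and 0.0554 CPM in the ileum and 22.3, 27.4 and 18.7 CPM in the colon (-5.69 ± 0.59, adjusted p = 1.35e-07). *B3galt5*, a galactosyltransferase, was at 0.165, 3.49 and 0.443 CPM in the ileum and 33.2, 19.9 and 28.7 CPM in the colon (-4.25 ± 0.91, adjusted p = 0.00298). *B3gnt7*, which extends chains with N-acetylglucosamine, was at 2.15, 5.75 and 1.61 CPM in the ileum and 39.8, 40.1 and 38.8 CPM in the colon (-3.62 ± 0.57, adjusted p = 5.85e-05). The ileal libraries all lay below the colonic ones for these. Also higher in the colon were *Chst4* and *Papss2*, both of sulphation. *Chst4*, a sulfotransferase gene, was at 1.07, 2.47 and 1.996 CPM in the ileum and 5.63, 20.1 and 16.2 CPM in the colon (-2.92 ± 0.49, adjusted p = 0.000135). *Papss2*, for the enzyme that makes the sulphate donor, was at 8.95, 11.003 and 4.43 CPM in the ileum and 26.6, 21.9 and 34.6 CPM in the colon (-1.76 ± 0.33, adjusted p = 0.000657). *Gcnt3*, which branches the chains, was at 9.82, 11.6 and 9.53 CPM in the ileum and 20.3, 32.5 and 40.99 CPM in the colon (-1.60 ± 0.32, adjusted p = 0.0016). In the other direction, the sialyltransferase gene *St3gal4* was at 92.3, 139 and 118 CPM in the ileum and 8.87, 31.2 and 13.4 CPM in the colon (2.70 ± 0.38, adjusted p = 1.33e-05). *Gcnt4* was at 11.1, 11.8 and 4.601 CPM in the ileum and 0.12, 1.76 and 0.425 CPM in the colon (3.45 ± 0.55, adjusted p = 7.69e-05). *Galnt6*, which starts chains, was at 38.7, 43.5 and 27.7 CPM in the ileum and 14.98, 14.6 and 16.2 CPM in the colon (1.26 ± 0.25, adjusted p = 0.00134). Sialyltransferase genes were thus called in both directions. *B4galnt2*, at 92.1, 67.2 and 59.4 CPM in the ileum and 74.5, 47.02 and 47.4 CPM in the colon, overlapped. *Fut2*, the fucosyltransferase of secretor status, was even in the colon and uneven in the ileum at 1.403, 17.8 and 3.77 CPM in the ileum and 23.8, 22.05 and 21.5 CPM in the colon, without a call (-1.54 ± 0.91, adjusted p = 0.428). *Galnt6* lost its call with the 6 libraries fitted alone (adjusted p = 0.0551). *B3galt5* had a log2 fold change of -6.49 without ileum library 2.

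Detoxification genes were divided as well. Of 65 tested genes 18 were higher in the colon and 8 in the ileum, against 2.22% and 3.02% of all tested genes. *Adh1*, an alcohol dehydrogenase, was at 11.01, 15.98 and 21.1 CPM in the ileum and 149.6, 230.3 and 385 CPM in the colon (-3.99 ± 0.46, adjusted p = 4.47e-07). *Cyp2c55*, a cytochrome P450 of the colon, was at 15.6, 3.84 and 1.94 CPM in the ileum and 202, 158 and 84.8 CPM in the colon (-4.37 ± 0.66, adjusted p = 3.52e-05). The glutathione transferase gene *Gstm1* was at 4.41, 1.73 and 2.38 CPM in the ileum and 32.8, 26.7 and 35.8 CPM in the colon (-3.48 ± 0.41, adjusted p = 5.68e-07). Its relatives *Gstk1* (-3.19 ± 0.41, adjusted p = 2.25e-06) and *Gsta4* (-2.30 ± 0.38, adjusted p = 0.000135) were higher in the colon, as were the carboxylesterase genes *Ces1g* (-4.91 ± 0.68, adjusted p = 8.96e-06) and *Ces1d* (-3.06 ± 0.47, adjusted p = 3.78e-05). Ileal and colonic libraries were well apart for these. In the direction of the ileum, *Cyp4f14* was at 32.7, 36.5 and 48.8 CPM in the ileum and 1.68, 7.32 and 11.7 CPM in the colon (2.49 ± 0.46, adjusted p = 0.000506). The P450 genes *Cyp4f40* (1.84 ± 0.51, adjusted p = 0.0278) and *Cyp2u1* (3.32 ± 0.64, adjusted p = 0.000956) were called as well. The esterase gene *Ces2e* was at 31.6, 36.9 and 49.1 CPM in the ileum and 9.83, 10.99 and 15.1 CPM in the colon (1.71 ± 0.32, adjusted p = 0.000609). *Cyp3a11*, the main small intestinal P450 for drugs, was low in both regions at 1.03, 0.564 and 1.77 CPM in the ileum and 0.36, 0.586 and 0.085 CPM in the colon (1.61 ± 0.55, adjusted p = 0.091). *Ces2a* overlapped at 8.79, 10.97 and 14.6 CPM in the ileum and 13.1, 8.06 and 11.4 CPM in the colon. P450 and esterase genes form families of near copies, which limits the values of single members. Without ileum library 1 the count towards the colon was 12, and without colon library 2 the count towards the ileum was 5. Over all alternatives the detoxification list had 5 to 14 called genes towards the ileum and 11 to 21 towards the colon. *Cyp4f40* lost its call without ileum library 1 (adjusted p = 0.113) or 2 (0.0754) and without colon library 1 (0.137) or 2 (0.0647), and with the 6 libraries fitted alone (0.0855).

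Of 39 tested genes of fatty acid oxidation and ketone formation, 4 were higher in the colon and none in the ileum. Over all tested genes 2.22% were called towards the colon. In either direction 8 of the 39 passed an unadjusted p below 0.05 in edgeR, against 16.3% of all genes. *Acads*, the dehydrogenase for butyryl-CoA, was at 33.5, 35.3 and 55.2 CPM in the ileum and 80.9, 109 and 117 CPM in the colon (-1.31 ± 0.27, adjusted p = 0.00219). *Acsf2*, an acyl-CoA synthetase, was at 8.62, 6.67 and 6.04 CPM in the ileum and 31.04, 28.5 and 25.9 CPM in the colon (-1.998 ± 0.32, adjusted p = 8.66e-05). The butyrate carrier gene *Slc5a8*, given above, is also on this list. *Cpt1a*, the entry step of long-chain oxidation, was at 40.8, 28.8 and 26.3 CPM in the ileum and 41.5, 39.3 and 27.98 CPM in the colon, with a 95% interval from -0.76 to 0.40. *Bdh1*, the dehydrogenase of ketone bodies, was at 34.5, 31.9 and 40.8 CPM in the ileum and 31.3, 33.3 and 29.8 CPM in the colon, with an interval from -0.29 to 0.66. *Acads* lost its call with library size alone (adjusted p = 0.0651).

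Of 30 tested stem cell and Wnt target genes, *Olfm4*, the Wnt target *Sp5* and the RNA-binding protein gene *Msi1*, at 14.6, 8.85 and 8.703 CPM in the ileum and 0.599, 3.003 and 1.956 CPM in the colon (2.495 ± 0.73, adjusted p = 0.0405), were higher in the ileum and none in the colon, against 3.02% of all tested genes towards the ileum. In either direction 11 of the 30 passed an unadjusted p below 0.05, against 16.3% of all genes. *Sp5* was at 4.41, 2.15 and 3.33 CPM in the ileum and had 2 counts in the colon, a ratio of 54.5 with a 95% counting interval from 14.9 to 453. Other stem cell genes were not called. *Lgr5*, for the receptor that marks crypt stem cells, was at 41.8, 17.2 and 19.2 CPM in the ileum and 24.6, 10.03 and 6.89 CPM in the colon (0.92 ± 0.67, adjusted p = 0.547). The transcription factor gene *Ascl2* was at 3.38, 2.86 and 2.11 CPM in the ileum and 0, 3.003 and 4.17 CPM in the colon (0.20 ± 0.98, adjusted p = 0.953). *Smoc2* was at 43.8, 35.5 and 43.5 CPM in the ileum and 19.2, 19.3 and 24.8 CPM in the colon (0.95 ± 0.35, adjusted p = 0.121). Regions overlapped for *Lgr5* and *Ascl2*. *Cd44* was at 46.7, 27.6 and 45.6 CPM in the ileum and 80.1, 76.4 and 77.6 CPM in the colon, without overlap and without a call (-0.97 ± 0.34, adjusted p = 0.101). None of 42 tested cell cycle genes was called in the comparison by edgeR with TMM factors, and their median log2 fold change was 0.73, above the 0.14 of all genes. In edgeR 9 passed an unadjusted p below 0.05, against 16.3% of all tested genes, and DESeq2 called none. *Mki67*, for the proliferation marker Ki-67, was at 142, 149.7 and 76.3 CPM in the ileum and 131, 72.3 and 32.8 CPM in the colon (0.65 ± 0.42, adjusted p = 0.479). *Top2a*, for a topoisomerase of dividing cells, was at 56.1, 73.5 and 76.6 CPM in the ileum and 54.3, 28.6 and 29.8 CPM in the colon (0.87 ± 0.40, adjusted p = 0.266). With library size alone 9 of them were called, 3 with the i5 index as a covariate and 1 without colon library 1, all towards the ileum. The stem cell list had 2 to 6 called genes towards the ileum and 0 to 2 towards the colon over the alternatives. *Msi1* lost its call without ileum library 1 (adjusted p = 0.156), 2 (0.0726) or 3 (0.0523) and without colon library 1 (0.156), 2 (0.0587) or 3 (0.107), and with RLE factors (0.0532) and at a minimum count of 30 (0.0551). *Sp5* had all its colonic reads in library 3, and its ratio rests on that library.

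None of 28 tested tuft cell genes was called by edgeR or by DESeq2, and 1 passed an unadjusted p below 0.05 in edgeR, as 16.3% of all genes did. Over the alternatives the tuft list had 0 to 1 called genes towards the ileum and 0 to 1 towards the colon. *Dclk1*, for a kinase that marks tuft cells, was at 11.1, 14.4 and 10.9 CPM in the ileum and 13.3, 18.2 and 6.21 CPM in the colon, with a 95% interval from -1.08 to 0.98. *Trpm5*, for their taste-type ion channel, was at 8.17, 11.96 and 10.98 CPM in the ileum and 5.39, 15.5 and 4.76 CPM in the colon, with an interval from -0.82 to 1.36. Differences of the size seen for *Sis* or *Apoa1* are outside these intervals. Of 29 tested genes of tight junctions, gap junctions, desmosomes and brush border cadherins, the claudins were not called. *Cldn3* was at 89.5, 86.8 and 112 CPM in the ileum and 86.1, 90.97 and 97.2 CPM in the colon. *Cldn15*, for a claudin that passes sodium, was at 54.3, 43.4 and 44.7 CPM in the ileum and 31.4, 38.1 and 31.3 CPM in the colon. The 2 called, a share near the 5.24% of all tested genes, were the connexin gene *Gja1*, with 2 counts in the ileum and 0.24, 1.98 and 4.34 CPM in the colon, and the cadherin gene *Cdhr1*, with 1 count in the ileum and 0.839, 1.17 and 3.66 CPM in the colon. Their ratios were 83.7 with a 95% counting interval from 22.4 to 703.05 and 138 with a 95% counting interval from 23.9 to 5537. The junction list had 0 to 9 called genes towards the ileum and 0 to 3 towards the colon over the alternatives, the ileal maximum with library size alone. Of 15 tested genes of M cells and follicle epithelium, the prion protein gene *Prnp* was the 1 called, again a share near that of all genes, towards the colon (-2.83 ± 0.57, adjusted p = 0.00157), and *Spib* was at 1.61, 2.61 and 3.22 CPM in the ileum and 1.198, 2.56 and 1.79 CPM in the colon. *Cdhr1* lost its call without ileum library 1 (adjusted p = 0.062) and without colon library 3 (0.0515). *Gja1* lost its call without ileum library 2 (adjusted p = 0.0544) and without colon library 3 (0.0621).

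**Figure D3:**
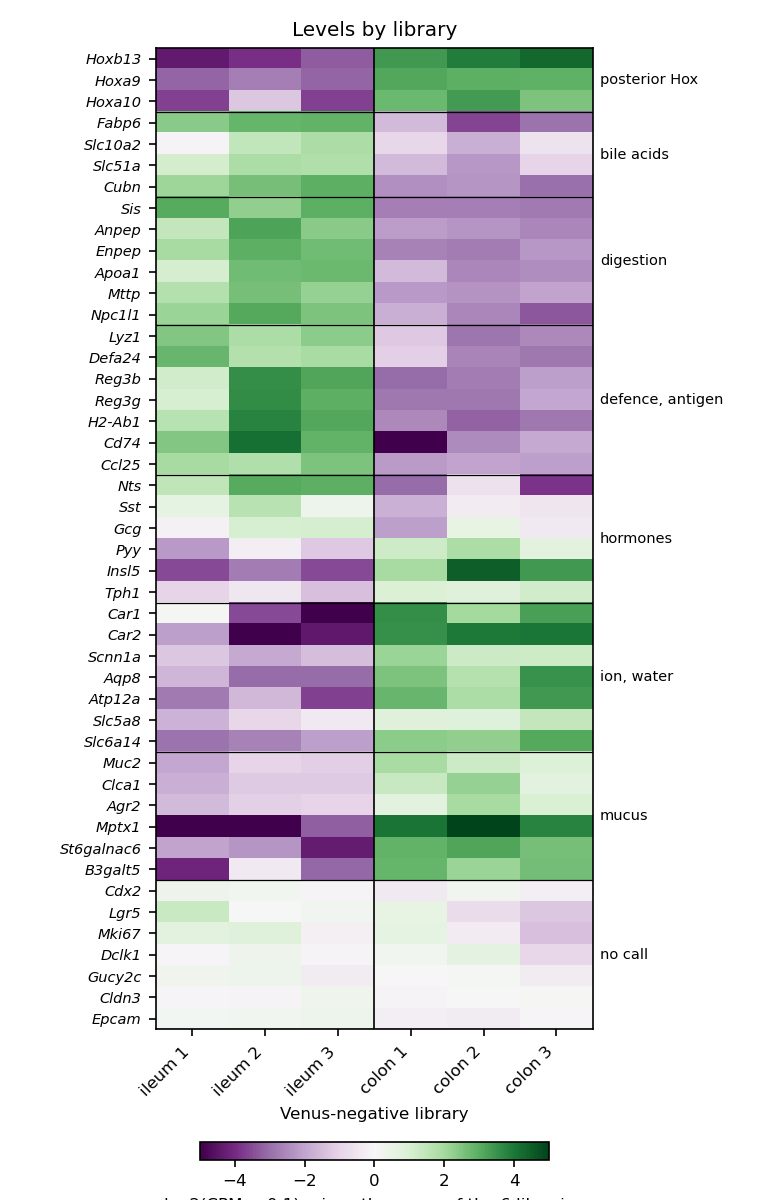
Levels of genes from the groups described, by library: the colour gives log2 of normalised CPM with 0.1 added, minus the mean of the 6 Venus-negative libraries, from purple (lower) to green (higher) and held at 5 in each direction. The vertical line parts ileum from colon, and the lowest block holds genes without a call, such as *Epcam* and *Cdx2*. The fainter ileum library 1 for *Anpep*, *Apoa1* and *Reg3b* and the *Mptx1* maximum in colon library 2 can be seen.

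Markers of cells outside the epithelium were low in both regions. Of 33 tested genes of immune, endothelial and stromal cells edgeR called none, 7 passed at an unadjusted p below 0.05 (16.3% of all genes did), and DESeq2 called 1 myeloid gene. Without a filter edgeR called 2 T cell genes, and with library size alone 1 gene each of the T cell, B cell, myeloid and stromal lists, all towards the ileum. The 22 listed genes of T and innate lymphoid cells summed to 2.15 to 25.1 CPM in the ileum and 2.47 to 6.95 CPM in the colon, the 12 endothelial genes to 3.46 to 4.29 CPM in the ileum and 5.02 to 16.9 CPM in the colon and the 18 genes of fibroblasts, muscle and glia to 9.53 to 28.3 CPM in the ileum and 6.21 to 18.8 CPM in the colon. Of these lists 9, 6 and 8 genes passed the filter. The T cell gene *Cd3e* was at 0.0413, 1.16 and 0.222 CPM in the ileum and 0, 0.293 and 0.17 CPM in the colon, and the plasma cell gene *Jchain* at 0.866, 1.23 and 0 CPM in the ileum and 0, 0.879 and 1.87 CPM in the colon. The endothelial gene *Pecam1* was at 0.743, 0.317 and 0.111 CPM in the ileum and 0, 3.88 and 0.085 CPM in the colon, and the fibroblast gene *Col1a1* at 3.84, 0 and 0.665 CPM in the ileum and 0, 1.904 and 1.45 CPM in the colon. The part of these cells in the differences above was not tested. Among 29 tested genes of dissociation and stress, *Fosb* was called, at 7.71, 5.64 and 7.21 CPM in the ileum and 45.2, 27.8 and 44.6 CPM in the colon (-2.51 ± 0.50, adjusted p = 0.00139). Towards the colon 2.22% of all tested genes were called. More of the list was called towards the colon with RLE factors (3), DESeq2 (5) or no filter (6). *Fos* was at 28.9, 18.1 and 29.3 CPM in the ileum and 56.4, 38.4 and 49.9 CPM in the colon (-0.92 ± 0.39, adjusted p = 0.216). *Jun* was at 90.3, 65.4 and 66.9 CPM in the ileum and 138, 129 and 114 CPM in the colon (-0.78 ± 0.41, adjusted p = 0.356). Both lay higher in every colonic library without a call. Whether the EDTA step moved them cannot be told apart from the region. Of the 13 protein-coding genes of the mitochondrial genome 7 were tested, and 5 had no count in any of the 6 libraries. None of the 7 was called by edgeR or DESeq2, and 0 passed an unadjusted p below 0.05 in edgeR. The 13 summed to 15027 to 20500 CPM in the ileum and 14389 to 23968 CPM in the colon. Most mitochondrial counts lay outside this list and are not covered by it.

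**Figure D4:**
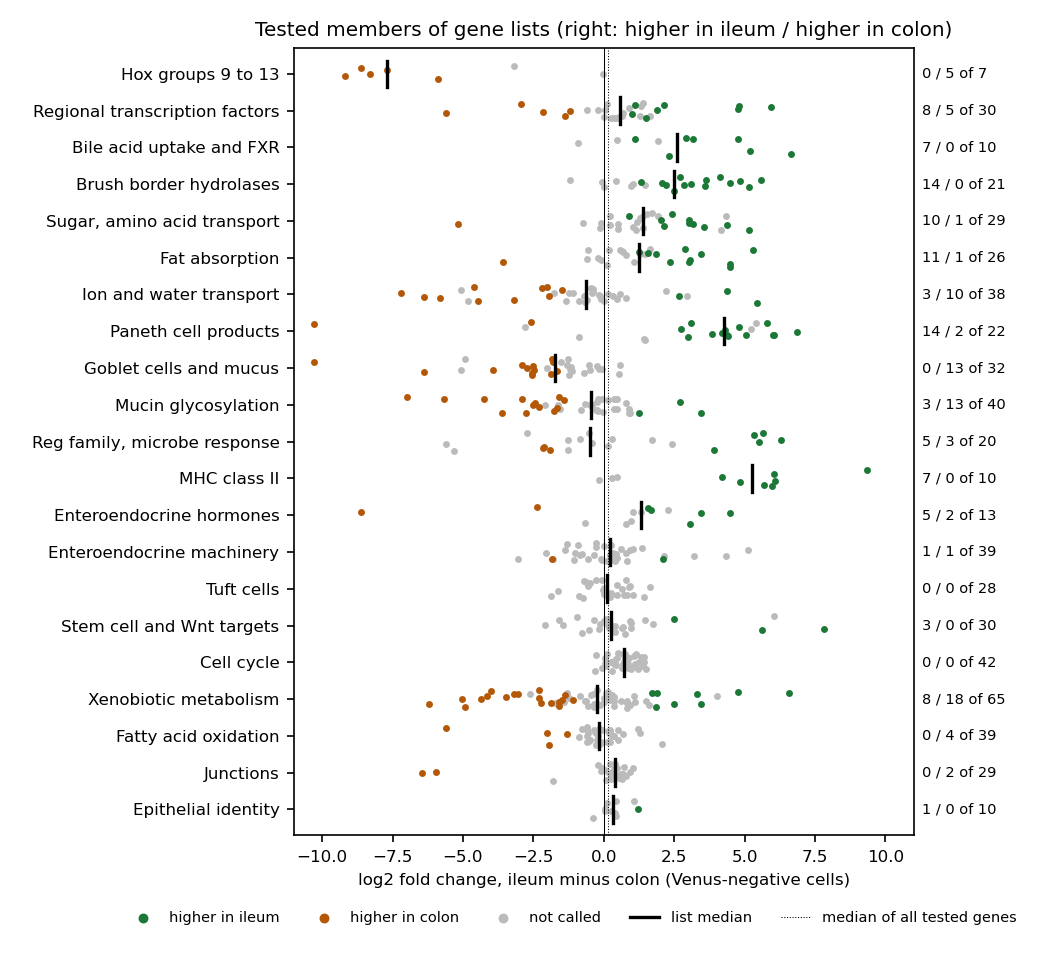
Log2 fold change, ileum minus colon, of the tested members of 21 gene lists in Venus-negative cells (x axis), with 1 point per gene: green, called higher in the ileum; brown, called higher in the colon; grey, not called. Black bars are list medians, the dotted line is the median of all tested genes, 0.14, and the figures at the right count calls in each direction; genes under the floor of detection in a region are drawn at their fitted value. MHC class II, Paneth, hydrolase and bile acid genes lie to the right, and Hox groups 9 to 13 and goblet genes to the left.

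The same comparison of ileum with colon can be made in the Venus-positive cells of these tissues, 3 libraries a region, which share no library with the negative ones. According to the paper both populations were sorted from each tissue. The sorts may therefore share mice, which the fit did not take into account. The difference between the sorts in the ileum-colon difference was tested as an interaction in the same fit, and 419 genes, 2.79% of those tested, were called. For 229 of them the value in negative cells lay towards the colon of that in positive cells, and for 190 towards the ileum. The count depended on the libraries: it was 183 without ileum positive library 3, 200 without ileum negative library 1 and 209 without colon positive library 1. It rose to 660 without ileum positive library 1, and it was 210 without colon positive library 3 and 228 without ileum positive library 2. Without ileum negative library 2 it was 265, and without colon positive library 2 it was 278. With library size alone it was 259, and with DESeq2 892.

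Genes of digestion and absorption were among those called. The paper proposes that mature enterocytes of the ileum are among the Venus-positive cells, and found markers of proliferating cells depleted there. The sorts thus hold different mixes of cells by the way they were drawn. The shares given below are descriptions, and nothing more is read from them. Among 21 hydrolase genes 11 were called for the interaction, all with negative cells on the side of the colon, against 2.79% of all tested genes in either direction. Of 30 stem cell and Wnt target genes 6 were called, and of 42 cell cycle genes 4, all with negative cells on the side of the ileum. Among 29 carriers of nutrients 12 were called, 11 with negative cells on the side of the colon and *Slc1a5*, a glutamine carrier gene, on that of the ileum (difference 2.26 ± 0.45, adjusted p = 0.005). In *Slc6a14*, which is one of the former, the regional difference was the larger in negative cells, at -5.18 against -2.98 in positive cells. *Anpep* had a log2 fold change of 4.82 in negative and 8.49 in positive cells (difference -3.67 ± 0.68, adjusted p = 0.00279), and *Dpp4*, without a call in negative cells, of 1.05 and 5.61 (difference -4.56 ± 0.49, adjusted p = 1.92e-06). Brackets here give the difference between the sorts with its approximate standard error. *Apoa1* had 4.49 and 7.85 (difference -3.36 ± 0.63, adjusted p = 0.00336). *Slc6a19* had 3.03 and 7.62 (difference -4.59 ± 0.78, adjusted p = 0.00138), and the glucose carrier *Slc5a1* had 1.03 and 3.61 (difference -2.58 ± 0.46, adjusted p = 0.002). For each of these the ileum was the higher region in both sorts. For *Clca1*, *Fcgbp* and *Zg16*, of which the last 2 were not called in negative cells, the sorts differed in sign. *Clca1* had -2.90 in negative and 0.62 in positive cells (difference -3.51 ± 0.59, adjusted p = 0.00129), *Fcgbp* -1.18 and 1.55 (difference -2.74 ± 0.59, adjusted p = 0.0104), and *Zg16* -1.26 and 1.78 (difference -3.04 ± 0.57, adjusted p = 0.0031). Colonic levels were the higher in negative cells and ileal levels in positive cells for all of these.

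*Slc5a8*, the butyrate carrier, was called towards the colon in negative cells and had the opposite sign in positive ones, -1.93 and 1.57 (difference -3.51 ± 0.62, adjusted p = 0.002). *Aqp4* had -1.48 and -5.42 (difference 3.94 ± 0.48, adjusted p = 1.84e-05), the larger difference being in positive cells. For the crypt genes *Prom1*, with 0.39 and -2.89 (difference 3.29 ± 0.35, adjusted p = 1.92e-06), and *Cd44*, with -0.97 and -3.15 (difference 2.18 ± 0.49, adjusted p = 0.0138), negative cells lay towards the ileum of positive ones. Of the genes chosen for the largest interaction at 10 CPM or more in a group, *Slc23a4* (difference -4.85 ± 1.11, adjusted p = 0.0151) and *Slc25a48* (difference -5.13 ± 0.89, adjusted p = 0.00162) lay in the former direction, and *Slc8a1* (difference 5.06 ± 1.07, adjusted p = 0.00903) and *Adra2a* (difference 4.66 ± 0.61, adjusted p = 5.64e-05) in the latter. All the genes named for the interaction so far except *Slc6a14*, whose adjusted p reached 0.225 without ileum positive library 2, kept their call with each of the 12 ileal and colonic libraries left out in turn, and *Slc8a1* moved to 7.74 without ileum positive library 1. *Lyz1*, with 4.31 and 8.02 (difference -3.71 ± 0.97, adjusted p = 0.0347), did not, and its adjusted p reached 0.119 without colon negative library 1. *Muc2* kept 1 sign with -2.72 and -0.39 (difference -2.32 ± 0.58, adjusted p = 0.0251), and its adjusted p reached 0.0806 without colon negative library 1. *Plekhh2* was the largest by value (difference 19.48 ± 4.33, adjusted p = 0.0125), with 0.371, 222 and 896 CPM in the ileum and 16.3, 2.12 and 2.55 CPM in the colon in negative cells, so that the ileal libraries spanned the colonic ones. Venus-positive cells of the colon were uneven too, at 388 ± 669 CPM (mean and SD). Its adjusted p reached 0.162 without colon positive library 3, with a difference of 11.302.

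*Insl5* was the hormone gene called, with mean levels in positive cells of 0.361 CPM in the ileum and 1.4997 CPM in the colon, against 14.01 CPM in colonic negative cells (difference -6.61 ± 1.71, adjusted p = 0.0389). Its adjusted p reached 0.901 without ileum positive library 2, with a difference of -1.11.

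**Figure D5:**
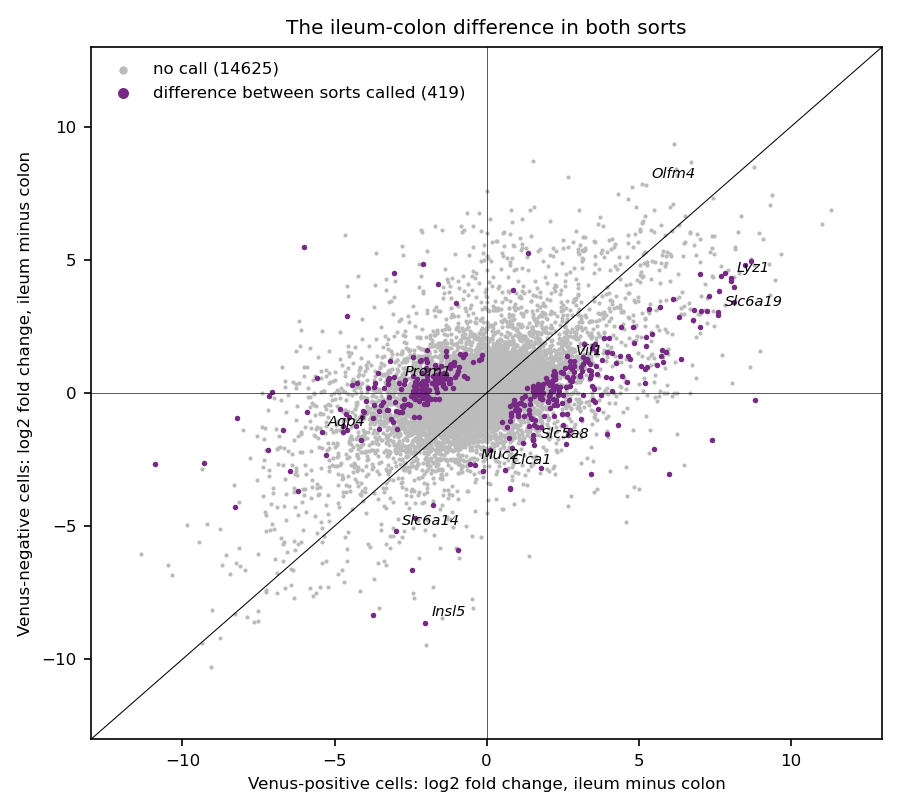
Log2 fold change, ileum minus colon, in Venus-positive cells (x axis) and in Venus-negative cells (y axis) for each tested gene. Purple points are the 419 genes whose difference itself differed between the sorts, and the diagonal marks equal differences. *Lyz1* and *Slc6a19* lie under it, and *Slc5a8* has opposite signs in the 2 sorts.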

How the data were processed

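RNA of sorted cells was made into libraries with a kit for low inputs and sequenced as short single-end reads. The authors aligned reads to GRCm38 with STAR (2.5.1 in the submitters' processing notes) and deposited whole-number counts of reads per gene for 24 libraries in 8 groups of 3. The strand setting is not given in the sources used here, so reads of overlapping and antisense genes cannot be told apart.

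Groups came from the labels. The table held 53465 genes. Those with low counts were left out by filterByExpr at a minimum count of 10 and a minimum total of 15, and the rest were scaled by TMM and fitted over all 24 libraries with edgeR 4.0.16 (limma 3.58.1, R 4.3.3), so that the 8 groups share 1 estimate of the spread. Ileum was compared with colon in Venus-negative cells by the quasi-likelihood test, and the same difference between sorts by an interaction term. P-values were adjusted by Benjamini-Hochberg over all tested genes. The depth, 9255295 to 23063124 counts in the 6 libraries, limits genes near the floor of 3 counts. Counting intervals are exact, at 95%, and cover counting error only, since PCR copies were not marked and reads may repeat a molecule. Standard errors are the absolute log2 fold change divided by the square root of the test's F value, so they are approximate. They can fail for genes with few counts in a group. For *Hoxa9* the error was 1.40 in negative cells but 0.024 for the interaction. Intervals of log2 fold changes are normal ones at 95% from these approximate errors. The scripts were tested on simulated data.

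The compared groups, gene lists (941 genes in 37 lists) and tests were chosen with earlier results of these data known. Named were the 15 genes with the largest change in each direction among called protein-coding genes without overlap and at 10 CPM or more, anchor genes of each list, list members with the largest changes, and the genes with the largest interaction. Other list members were named to complete a family, and some genes that this rule picks are not reported here. Alternatives were RLE factors, library size alone, DESeq2 1.42.0, no filter, a minimum count of 30, protein-coding genes alone, the i5 index as a covariate, the compared libraries alone, each library left out, an adjusted p of 0.01 and a log2 fold change of at least 1.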

Additional observations from a re-analysis of the deposited data

Results flagged for a closer look

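For 53 of the genes named in the report or in the other observations, the difference between ileum and colon itself differed between Venus-negative and Venus-positive cells, by the interaction term of the same fit at an adjusted p below 0.05. Values are the log2 fold change, ileum minus colon, of negative cells minus that of positive cells, so a value below 0 places the negative cells towards the colon. For 31 of them the term passed with each of the 12 libraries of the 4 groups left out in turn. Those with values below 0 were -5.13 for *Slc25a48*, -4.85 for *Slc23a4*, -4.59 for *Slc6a19*, -4.56 for *Dpp4*, -4.39 for *B3gnt7*, -4.19 for *Anxa3*, -4.14 for *Mme*, -3.71 for *Soat2*, -3.69 for *Lct*, -3.67 for *Anpep*, -3.51 for *Clca1*, -3.51 for *Slc5a8*, -3.36 for *Apoa1*, -3.33 for *Clca4b*, -3.23 for *Ace*, -3.12 for *Slc15a1*, -3.04 for *Zg16*, -2.95 for *Cyp4v3*, -2.74 for *Fcgbp*, -2.60 for *Hnf4g*, -2.58 for *Slc5a1*, -2.53 for *Mttp*, -2.31 for *Mgam*, -2.25 for *Il18* and -2.04 for *Dgat1*. Those above 0 were 2.18 for *Cd44*, 2.26 for *Slc1a5*, 3.29 for *Prom1*, 3.94 for *Aqp4*, 4.66 for *Adra2a* and 5.06 for *Slc8a1*. The former include the peptidase genes *Dpp4*, *Anpep*, *Ace* and *Mme*, and the water channel gene *Aqp4* and the crypt genes *Prom1* and *Cd44* are among the latter.

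The others lost their call in some of these fits, given in brackets as the number of fits without a call and the highest adjusted p. The values were -6.61 for *Insl5* (9 fits, 0.901 without ileum positive library 2), -4.61 for *Sval1* (3 fits, 0.0803 without ileum negative library 2), -4.59 for *Ang4* (9 fits, 0.381 without colon negative library 2), -4.16 for *Cyp3a11* (1 fit, 0.107 without colon negative library 2), -4.02 for *Itln1* (8 fits, 0.192 without colon negative library 2), -3.82 for *Defa24* (2 fits, 0.0727 without colon negative library 1), -3.78 for *Defa30* (5 fits, 0.179 without colon negative library 1), -3.71 for *Lyz1* (7 fits, 0.119 without colon negative library 1), -3.46 for *Xpnpep2* (9 fits, 0.889 without colon negative library 1), -2.81 for *Chst4* (3 fits, 0.0587 without ileum negative library 1) and -2.58 for *Slc6a20a* (8 fits, 0.164 without colon negative library 3). Further values were -2.43 for *Fabp2* (8 fits, 0.15 without ileum positive library 3), -2.32 for *Muc2* (5 fits, 0.0806 without colon negative library 1), -2.19 for *Slc6a14* (8 fits, 0.225 without ileum positive library 2), -2.19 for *Slc43a2* (8 fits, 0.14 without colon negative library 2), -2.06 for *Tff3* (6 fits, 0.0834 without ileum negative library 2), -1.81 for *Cndp2* (6 fits, 0.0665 without colon positive library 3), -1.61 for *Aldh1a1* (6 fits, 0.101 without ileum positive library 3), -1.53 for *Vil1* (7 fits, 0.111 without colon positive library 3), 1.28 for *Bdh1* (11 fits, 0.128 without colon positive library 2), 1.498 for *Abcc3* (11 fits, 0.146 without ileum positive library 2) and 19.48 for *Plekhh2* (1 fit, 0.162 without colon positive library 3). Leaving out 1 library moved the value by over 1.5 times for *Ang4* (-1.75 without colon negative library 2), *Insl5* (-1.11 without ileum positive library 2), *Plekhh2* (11.302 without colon positive library 3), *Slc6a14* (-1.39 without ileum positive library 2), *Slc8a1* (7.74 without ileum positive library 1), *Sval1* (-7.26 without ileum negative library 3) and *Xpnpep2* (-0.54 without colon negative library 1). *Insl5*, *Sval1* and other genes with few counts in a group have fitted values that depend on the prior count, and no size should be read from them. *Plekhh2* had uneven replicates in both sorts, as given in the report.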

How the results depend on the processing

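The total of 789 genes moved by more than 1.5 times with library size alone (1833, of them 1599 higher in the ileum), with the 6 libraries fitted alone (512, of them 178 higher in the ileum) and at an adjusted p of 0.01 (441, split into 247 and 194). Genes higher in the colon numbered 574 with DESeq2 and 515 without a filter. The cause of these shifts was not tested, save that a stricter threshold passes fewer genes. With 1 library left out the total ranged from 488 (without ileum library 2) to 736 (without ileum library 3), the genes higher in the ileum from 284 to 462 and those higher in the colon from 203 (without ileum library 1) to 358. The interaction count of 419 was 259 with library size alone, 892 with DESeq2 and 90 at an adjusted p of 0.01, and 183 to 660 with 1 library left out. The other settings, RLE factors, a minimum count of 30, protein-coding genes alone, the i5 index as a covariate and a log2 fold change of at least 1, kept the total and the interaction count within 1.5 times. Called genes of the gene lists numbered 190, counting a gene on several lists once, and 153 to 239 under the alternatives.

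Of 183 called genes named in the text, 130 were called in every alternative that gave a value, and 212 of 2555 values lost the call, 138 of them with a library left out. Of the genes named, none had a called value that changed sign (0 values), and 65 values of genes without a call gained one. Medians of the glycosylation, detoxification, fatty acid oxidation, M cell, chemokine, stress and mitochondrial protein-coding lists changed sign with library size alone. Those of the enteroendocrine machinery, tuft, cholesterol, T cell, endothelial, stromal and sex-linked lists, and again of the M cell and chemokine lists, did so in other alternatives, so no direction of these lists as a whole was read. None of the 5 tested sex-linked genes was called. Genes with few counts, such as hormone and Hox genes, are limited by depth, and genes near the floor could differ between regions without being called. Mitochondrial transcripts took most counts, which lowers the depth left for other genes. No paired analysis was run, because the labels do not tie libraries to mice. Ileal and colonic libraries may share mice, and the fit did not take that into account.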

Other observations

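Some members of the described groups have not been given yet. Further genes of mucin sugar chains were higher in the colon. *St6galnac4*, a sialyltransferase gene, had 3 counts in the 3 ileal libraries together and was at 5.87, 7.18 and 5.61 CPM in the colon, a ratio of 149 with a 95% counting interval from 50.2 to 726. *St3gal6*, another sialyltransferase gene, was at 2.19, 7.65 and 5.54 CPM in the ileum and 16.9, 40.3 and 46.2 CPM in the colon (-2.75 ± 0.39, adjusted p = 1.21e-05), and *B3gnt5* at 1.73, 4.06 and 4.16 CPM in the ileum and 12.6, 17.5 and 26.7 CPM in the colon (-2.51 ± 0.51, adjusted p = 0.00155). The colonic libraries lay above the ileal ones for each of these. The goblet cell genes *Ern2*, a sensor of unfolded protein in mucus-making cells, and *Sytl2*, a gene of secretory granule transport, had log2 fold changes of -2.47 and -1.81. Among detoxification genes, *Sult1c2* was at 6.35, 2.79 and 6.37 CPM in the ileum and 29.2, 24.2 and 19.05 CPM in the colon (-2.23 ± 0.40, adjusted p = 0.000392), and *Mgst3*, *Hpgd*, *Ugt1a7c* and *Aldh1a1*, the last a retinaldehyde dehydrogenase gene, were higher in the colon by log2 fold changes of -1.36, -1.47, -1.57 and -1.08. *Cyp4v3* was higher in the ileum, at 9.57, 9.804 and 17.3 CPM in the ileum and 1.92, 3.88 and 3.91 CPM in the colon (1.89 ± 0.36, adjusted p = 0.000704). Of 10 tested genes listed for deep crypt secretory cells of the colon, *Reg4*, *Spink4* and *Agr2* were called towards the colon (2.22% of all tested genes were), while *Kit*, at 13.1, 13.8 and 10.8 CPM in the ileum and 6.83, 23.2 and 8.25 CPM in the colon, and *Cd24a*, at 60.5, 70.3 and 109 CPM in the ileum and 90.5, 149 and 155 CPM in the colon, overlapped or missed the threshold (-0.72 ± 0.42, adjusted p = 0.425). This list had 0 to 1 called genes towards the ileum and 1 to 4 towards the colon over the alternatives. Colon library 2 was the highest colonic library for *Kit* as for *Reg4*, *Spink4* and *Agr2*. *Sytl2* lost its call without ileum library 3 (adjusted p = 0.06) and without colon library 1 (0.0712), and with library size alone (0.0529). *Mgst3* lost its call without ileum library 1 (adjusted p = 0.0521), and with library size alone (0.0587). *Hpgd* lost its call without ileum library 2 (adjusted p = 0.0791), and with library size alone (0.0669). *Ugt1a7c* lost its call without ileum library 1 (adjusted p = 0.0607) or 2 (0.0701) and without colon library 3 (0.0533), and with library size alone (0.0529). *Aldh1a1* lost its call without ileum library 1 (adjusted p = 0.175) and without colon library 1 (0.0847) or 3 (0.0797), and with library size alone (0.187) and with the 6 libraries fitted alone (0.0555). *Aldh1a1* had a log2 fold change of -0.68 with library size alone.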
